A study of Rattus norvegicus with 6 samples.

Results

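Eln-positive smooth muscle cells are vessel-wall cells that carry transcripts of Eln, the gene for elastin. They were taken from 3 droplet libraries of 3′ ends made from the brain of sham Sprague Dawley rats. The labelled age is postnatal day 21. A cell barcode was kept with at least 500 unique molecular identifiers (UMIs, each 1 counted RNA molecule) in at least 200 genes, provided that the 13 mitochondrial genes held no more than 20% of them. It counted as smooth muscle when Tagln, Acta2 and Myh11, which code for transgelin, smooth muscle actin and smooth muscle myosin, together held at least 1% of its UMIs, and as Eln-positive with at least 2 Eln UMIs. This left 4358 Eln-positive cells among 10542 smooth muscle cells and 19240 kept barcodes of the sham libraries, out of 38685 kept barcodes in the series. They were set against 4949 smooth muscle cells of the same libraries with Eln at 0, and 1235 cells with 1 Eln UMI stayed out of the comparison. The other 3 libraries of the series came from rats of the same strain and labelled age with an infarct of the pons, a part of the brainstem. Of their 5977, 7401 and 6067 kept barcodes, 0, 0 and 1 met the smooth muscle rule and 0 were Eln-positive, which allows shares of up to 0.0502%, 0.0405% and 0.0494% of barcodes for counting error only, so sham and infarction could not be compared for these cells.

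Elastin is secreted as a soluble precursor, laid down on a scaffold of fibrillin microfibrils with the help of fibulins and latent TGF-β binding proteins, and cross-linked by lysyl oxidases into fibres that let an artery recoil after each heartbeat. In arteries the smooth muscle cells of the wall make most of it during development and early postnatal growth. In the brain, the wall cells of vessels run from smooth muscle cells on arteries and arterioles to pericytes on capillaries, and their transcript levels are known to change gradually along that line. The deposited files do not say from which vessel a cell came, and no marker of arteries alone was among the genes used, so the cells are called here by their Eln UMIs and not by a vessel type.

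The sham libraries held 56416475, 69924334 and 59554144 UMIs. Pairs of sham libraries shared 16 to 18 kept barcodes, of which 1 or 2 were Eln-positive in both. The labels do not say whether the 3 libraries came from separate animals, so p-values measure only the spread between these libraries, which may be technical. Pooled counts of Eln-positive cells differed between each pair of libraries by more than sampling noise, with a chi-square of 15.9 to 21.0 per degree of freedom over genes, and each was counted as a separate replicate.

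Sham 1, 2 and 3 held 1611, 1356 and 1391 Eln-positive cells. These were 41.1%, 39.6% and 43.4% of the smooth muscle cells of each library, 41.4% ± 1.91 on average (SD, n = 3 libraries). The 3 libraries thus gave close shares, although Eln chose the cells and the share moves with the threshold. The Eln-positive cells held a median of 7, 9 and 8 Eln UMIs and at most 205, 173 and 200. Just inside the threshold, 253 cells of sham 1 had 2 Eln UMIs and a median of 8601 UMIs in all, while 450 cells with 1 Eln UMI, just outside it, had a median of 8117. Eln (ENSRNOG00000001469) stood at 1142, 1114 and 1130 counts per 1000000 UMIs (CPM, here unscaled) in Eln-positive cells. Other barcodes of the sham libraries were set beside these cells as comparison cells, chosen by a share of UMIs of at least 1% from a set of microglia genes that includes C1qa, C1qb and C1qc, Dcn, Lum, Col1a1 and Col1a2 (fibroblasts), or at least 0.5% from Cldn5, Flt1, Pecam1 and Slco1a4 (endothelial cells) or Kcnj8, Abcc9, Atp13a5, Vtn and Higd1b (pericytes). In cells that should lack Eln, it was at 7.17, 9.51 and 11.8 CPM in microglia of the same libraries and 3.94%, 5.34% and 6.60% of those microglia held a UMI. Such microglia had a median of 5277 to 5793 UMIs, and free RNA in the droplets gives UMIs of this kind. Fibroblast comparison cells held Eln too, at 427, 1158 and 900 CPM in 109, 47 and 42 cells.

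**Figure D1:**
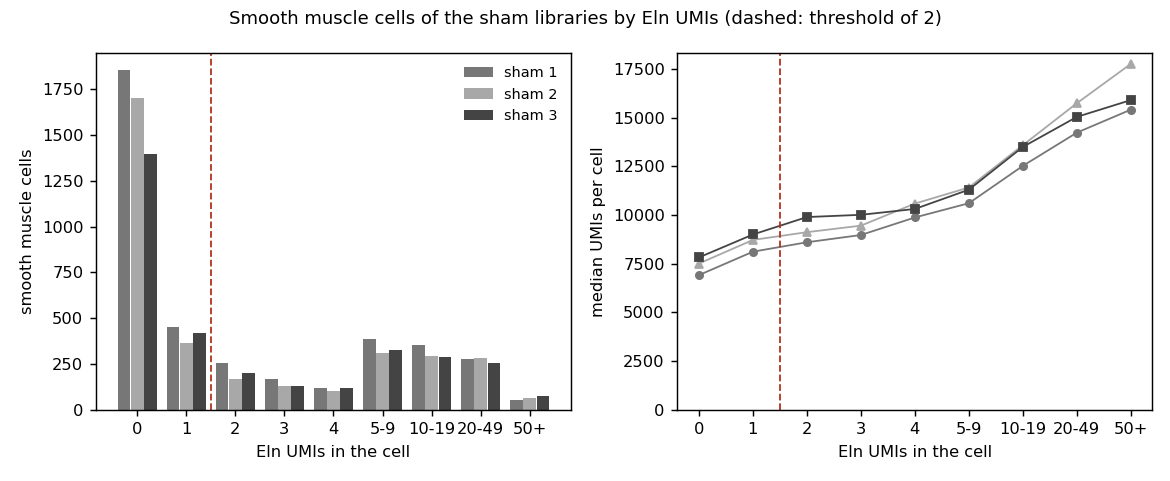
Number of smooth muscle cells (left) and their median UMIs per cell (right) by the number of Eln UMIs in the cell, one colour per sham library, with the threshold of 2 Eln UMIs dashed. Cells with Eln at 0 form the tallest bars, at 1854, 1700 and 1395 cells, and cells with more Eln UMIs also held more UMIs in all.

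The genes of the rule are a description with no test. In CPM scaled with TMM factors, which are edgeR's correction for library composition, Tagln stood at 37598, 34911 and 35428 CPM in Eln-positive cells, against 22106, 21311 and 21553 in cells with Eln at 0. Acta2 stood at 18471, 14391 and 16842 CPM in Eln-positive cells, against 10619, 8333 and 10052 in cells with Eln at 0. Myh11 stood at 6632, 6212 and 6459 CPM in Eln-positive cells, against 3892, 3812 and 4226 in cells with Eln at 0. All 3 genes were higher with Eln in each library. The median smooth muscle share lay well above the 1% rule, at 5.70%, 5.14% and 5.47% of UMIs in Eln-positive cells and 3.87%, 3.48% and 3.79% in cells with Eln at 0. The lower end of the group with Eln at 0 came close to the rule. Its 5th percentile was 1.61%, 1.49% and 1.39%, against 3.64%, 3.02% and 3.57% in Eln-positive cells. A rule of 3% left 1572, 1289 and 1354 Eln-positive cells and 1361, 1123 and 1014 cells with Eln at 0. Muscle genes outside the rule were found in both groups as well, though their levels in other cell types are not given here. Myl9, a regulatory light chain of myosin, averaged 8032 ± 565 CPM in Eln-positive cells and 6474 ± 225 in cells with Eln at 0 (SD, n = 3 libraries), and Des, the muscle intermediate filament desmin, averaged 3232 ± 130 CPM in Eln-positive cells and 1341 ± 148 in cells with Eln at 0.

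A threshold on UMIs favours deeply sequenced cells. Eln-positive cells had a median of 10905, 12294.5 and 11937 UMIs, against 6915, 7508 and 7822 in cells with Eln at 0, a difference of 4297 ± 428 (SD, n = 3 libraries; two-sided exact sign-flip permutation p = 0.25, the smallest that 3 pairs allow). The median mitochondrial share was 11.4%, 13.4% and 12.4% of UMIs in Eln-positive cells, against 10.2%, 11.6% and 10.9% in cells with Eln at 0, a difference of 1.52 ± 0.287 percentage points (exact permutation p = 0.25). Levels below were therefore taken from UMIs summed over the cells of a group in each library and scaled to CPM with TMM factors, unless called unscaled. Where shares of cells are given, every cell was first thinned to 5000 UMIs, which left 1521, 1340 and 1380 Eln-positive cells and 1535, 1518 and 1207 cells with Eln at 0.

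The quasi-likelihood test of edgeR, blocked by library, was run on 11295 genes, of which 4856 or 43.0% passed an adjusted p of 0.05 (Benjamini-Hochberg over all genes tested). Of these, 2553 were higher in Eln-positive cells, which is 22.6% of the genes tested, and 2303 were lower, which is 20.4%. A difference of at least 1 log2 unit was called upward in 568 genes, 5.03%, and downward in 532 genes, 4.71%. The median log2 fold change over all genes tested was -0.02. Counts given below for gene lists are to be read beside these shares of 22.6% higher and 20.4% lower. The 3 libraries of a group did not overlap those of the other in 45.9% of genes, so a call alone is common here and the size of a difference says more. DESeq2's Wald test called 1571 genes higher and 1038 lower, and edgeR called 1561 and 1372 when only cells with at most 10% mitochondrial UMIs were kept. Among cells of 5000 to 20000 UMIs, edgeR called 2458 genes higher and 2212 lower. This window did not match depth, since the median still differed by 3796 UMIs between the groups. With every cell thinned to 5000 UMIs, edgeR called 2001 genes higher and 1721 lower, and 73.0% of the 4856 calls were kept. The groups were still those set by Eln UMIs before thinning, and cells under 5000 UMIs were left out. Thinning therefore did not take depth out of the choice of cells. The part of depth and of the mitochondrial share in the differences was not tested beyond these settings.

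**Figure D2:**
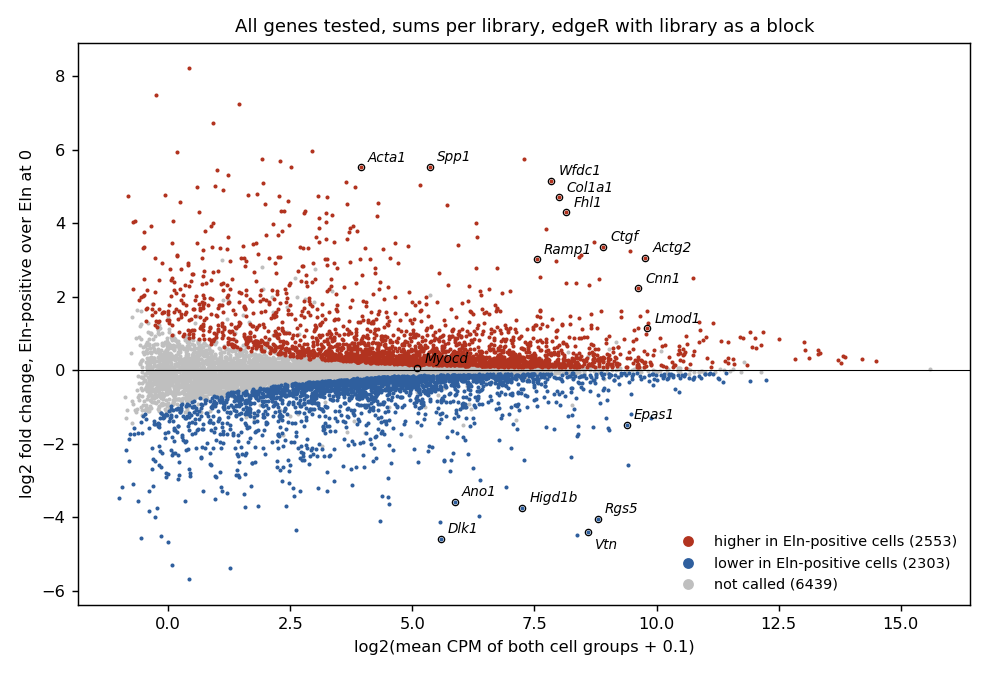
Log2 fold change of Eln-positive cells over cells with Eln at 0 (vertical) against log2 of the mean CPM of both groups with 0.1 added (horizontal), one point per gene tested, coloured by call. Wfdc1, Col1a1 and Fhl1 stand above 4 at more than 200 CPM on average and Vtn and Rgs5 below -4, while Myocd lies near 0.

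Genes of the contractile apparatus were higher in Eln-positive cells in 31 of 37 tested members of a list of muscle filament and adhesion genes, lower in 3 and not called in 3. Their median log2 fold change was 0.70, beside -0.02 over all genes tested, of which 22.6% were higher and 20.4% lower. Cnn1 (ENSRNOG00000027736) codes for calponin, which binds actin and slows the myosin motor of smooth muscle. It stood at 1387, 1270 and 1222 CPM in Eln-positive cells, against 280.8, 263.5 and 284.7 in cells with Eln at 0. The 3 Eln-positive values lay far above the others, and Cnn1 was 4.68-fold higher (log2 fold change 2.23 ± 0.04, SE; edgeR adjusted p = 3.07e-10), and by 2.87 on the log2 scale with at most 10% mitochondrial UMIs. Actg2 (ENSRNOG00000029401), the enteric smooth muscle actin, stood at 1699, 1572 and 1387 CPM in Eln-positive cells, against 186.7, 163.3 and 208.1 in cells with Eln at 0. It was 8.36-fold higher (log2 fold change 3.06 ± 0.16; edgeR adjusted p = 0.00606), but without sham 1 the call was lost, at a log2 fold change of 3.00 and an adjusted p of 0.0872. Reads of Actg2, Acta1 and Acta2 may be split between these near-identical actin genes, and how the counting treated shared reads is not given in the sources used here.

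The share of cells with a UMI had the same order. After thinning, a Cnn1 UMI was found in 95.9% of Eln-positive cells and 60.6% of cells with Eln at 0, beside 5.13% of microglia, and before thinning in 98.7% of Eln-positive cells and 63.8% of cells with Eln at 0. An Actg2 UMI was found in 91.6% of Eln-positive cells and 40.6% of cells with Eln at 0 after thinning, beside 6.02% of microglia, and in 96.1% of Eln-positive cells and 46.3% of cells with Eln at 0 before it. Among Eln-positive cells, 92.5%, 92.2% and 93.4% of those with Cnn1 also held Actg2, against 63.6%, 57.4% and 74.1% of those without Cnn1.

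Other contractile genes differed less. Lmod1, leiomodin, which starts actin filaments in smooth muscle, stood at 1212, 1187 and 1300 CPM in Eln-positive cells, against 540.3, 533.6 and 598.3 in cells with Eln at 0 (log2 fold change 1.15 ± 0.03; edgeR adjusted p = 1.48e-12). Both sets of 3 values were tight and lay far apart. The actin-binding adaptors Pdlim7 and Synpo2 were 1.63 ± 0.03 and 1.59 ± 0.05 higher on the log2 scale, the LIM protein Csrp1 1.05 ± 0.02, the actin cross-linker Actn1 1.09 ± 0.03 and the tropomyosin Tpm2 0.76 ± 0.02. Ppp1r12a and Rock1, which set myosin phosphatase activity, were not called, at log2 fold changes of 0.01 ± 0.03 and 0.07 ± 0.03. Rock1 was called higher without the filter on low counts (0.08) and without sham 3 (0.11). Calls downward were Cnn3, Tpm4 and Itga7, at -0.36, -0.53 and -0.08, a calponin and a tropomyosin that many non-muscle cells make and a laminin-binding integrin chain, named here after their values were seen because they were the only 3.

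The 12 genes with the highest log2 fold changes, among called genes with at least 20 CPM in the higher group and the same direction in every library, joined secreted proteins, matrix and muscle genes. Wfdc1, a small secreted protein with a protease inhibitor fold, stood at 479.2, 404.3 and 458.3 CPM in Eln-positive cells, against 15.18, 9.77 and 12.83 in cells with Eln at 0, 35.6-fold higher (log2 fold change 5.15 ± 0.06; edgeR adjusted p = 4.97e-12). A Wfdc1 UMI was held by 58.9% of Eln-positive cells and 4.35% of cells with Eln at 0 after thinning, beside 1.59% of microglia. Endothelial comparison cells held more of it still, 1305 unscaled CPM, while Cldn5, the tight junction gene that defines them, was at 7776 CPM in those cells and 8.36 CPM in Eln-positive cells. Fhl1, a LIM protein of striated and smooth muscle, stood at 616.8, 502.7 and 507.6 CPM in Eln-positive cells, against 30.1, 23.1 and 29.5 in cells with Eln at 0, 19.7-fold higher (log2 fold change 4.30 ± 0.06; edgeR adjusted p = 1.89e-09). Neither gene's groups came near to overlapping, but both genes were chosen for the size of their differences.

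The other genes of the 12 were less abundant, Col1a1 aside. Spp1, osteopontin, averaged 80.2 ± 23.4 CPM in Eln-positive cells and 1.72 ± 0.973 in cells with Eln at 0 (SD, n = 3 libraries; log2 fold change 5.53 ± 0.12), and 14.04% of Eln-positive cells held a UMI after thinning, against 0.487% of cells with Eln at 0. Acta1, the skeletal muscle actin, averaged 30.0 ± 6.02 CPM in Eln-positive cells and 0.669 ± 0.477 in cells with Eln at 0 (log2 fold change 5.52 ± 0.17). Ckm, the muscle creatine kinase, averaged 37.7 ± 5.34 CPM in Eln-positive cells and 1.58 ± 0.107 in cells with Eln at 0 (4.56 ± 0.10). Fhod3, a formin that organises muscle actin, differed by 4.98 ± 0.13 and Penk, the precursor of enkephalin peptides, by 4.51 ± 0.15 on the log2 scale. Prss35, a gene of the trypsin-like protease family, differed by 5.13 ± 0.19, Lrrtm3, a leucine-rich repeat membrane protein of synapses, by 4.19 ± 0.12 and Plac9, a small secreted protein, by 5.05 ± 0.10. Fhod3, Penk, Prss35, Lrrtm3 and Plac9 averaged 27.3, 24.0, 24.1, 36.7 and 68.8 CPM in Eln-positive cells. In cells with Eln at 0 they averaged 0.851, 1.05, 0.677, 2.01 and 2.05 CPM. Those low levels came from 33, 41, 27, 77 and 80 UMIs, so the size of these fold changes rests on few counts. With at most 10% mitochondrial UMIs, Spp1 differed by 6.57, Fhod3 by 6.36 and Penk by 5.27, and without sham 1 Prss35 differed by 5.77. Plac9 was also abundant in fibroblast comparison cells, at 1598 unscaled CPM, against 64.0 unscaled CPM in Eln-positive cells. The last 2 of the 12 were the collagen genes Col1a1 and Col8a1, given with the matrix genes.

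RefSeq promoter windows, 250 bases before to 50 after the gene start on build GRCr8, were at hand for 8 of these 12 genes and were searched because Acta1 is a classic target of serum response factor. The search was for the CArG box, the 10-base element that this factor binds, and the windows that hold one are shown. Since the element reads as a CArG box on both strands, 1 search covers both. It was found in 2 of the 8 genes, Acta1 and Fhl1, beside 1.42% of the 8496 tested genes with a window and 1.64% of all 33469 windows. Since Acta1 prompted the search as a known target, its match was foreseen. The 2 of 8 can therefore not be weighed against these shares. The 250 bases before the start are printed here 5′ to 3′ on the gene's strand with the CArG box in capitals, chr19:68784195-68784444 on the minus strand for Acta1 and chrX:139638246-139638495 on the plus strand for Fhl1.
Acta1: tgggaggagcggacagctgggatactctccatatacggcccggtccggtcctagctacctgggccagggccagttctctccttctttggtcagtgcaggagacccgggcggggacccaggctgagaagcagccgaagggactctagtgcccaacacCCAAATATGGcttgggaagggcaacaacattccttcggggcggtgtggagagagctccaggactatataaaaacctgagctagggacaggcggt
Fhl1: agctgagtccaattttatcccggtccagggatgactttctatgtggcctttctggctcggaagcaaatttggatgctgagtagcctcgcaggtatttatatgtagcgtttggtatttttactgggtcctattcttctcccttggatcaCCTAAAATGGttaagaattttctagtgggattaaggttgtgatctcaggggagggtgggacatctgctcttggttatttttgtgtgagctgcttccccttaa
The element lay 94 to 85 bases before the start of Acta1 and 102 to 93 bases before that of Fhl1. In the contractile list it was found in 1 of 32 genes with a window, 3.13%. A match describes letters in a window and does not show that a factor binds there.

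**Figure D3:**
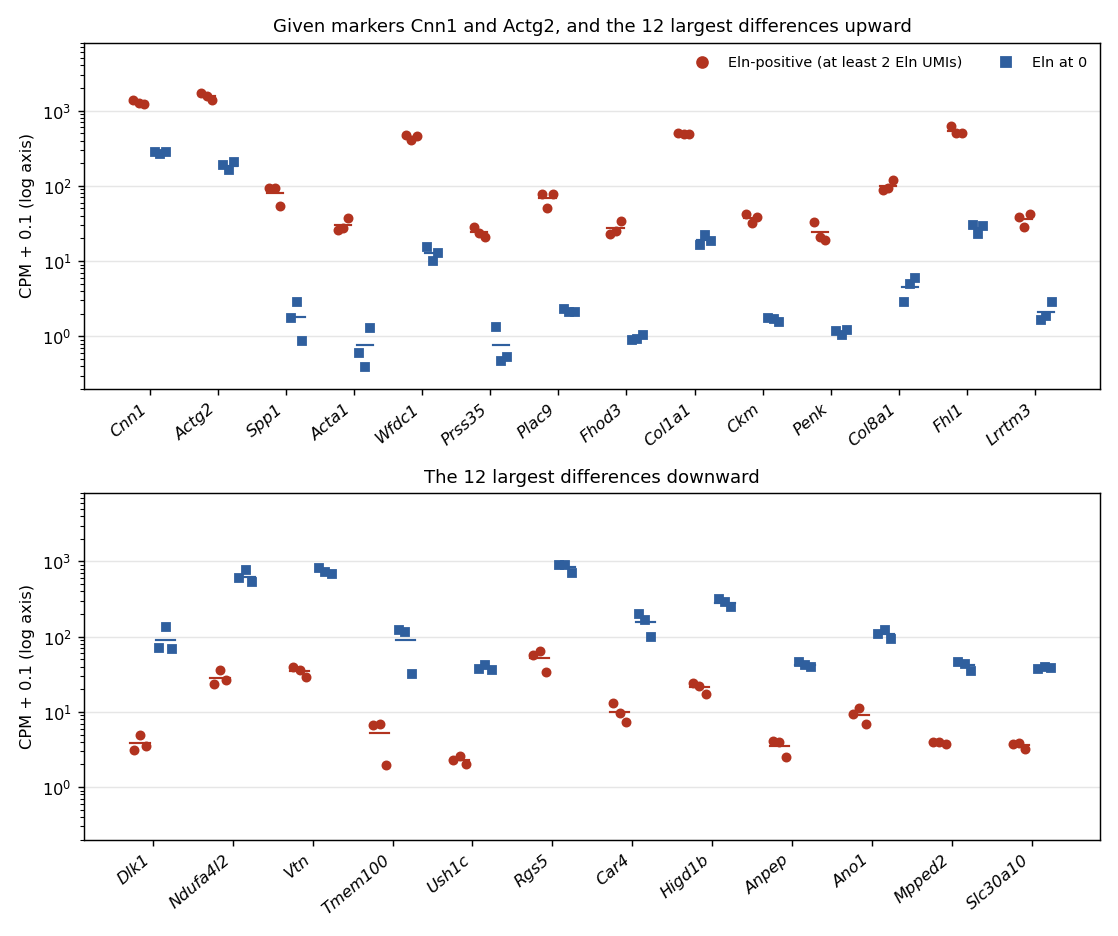
CPM with 0.1 added (log axis) of the given markers and the 12 genes with the largest differences upward (top) and downward (bottom). Each point is 1 sham library, with Eln-positive cells left in red and cells with Eln at 0 right in blue, and bars are means. The groups do not overlap for any gene shown, but all except the given markers were chosen for the size of their differences.

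Genes that help build elastic fibres were mostly higher with Eln. Of 25 listed, 18 could be tested, of which 15 were higher, 1 lower and 2 not called. The list's median log2 fold change was 0.79, beside -0.02 over all genes tested, of which 22.6% were higher and 20.4% lower. Loxl1, a lysyl oxidase that cross-links elastin, stood at 58.8, 55.9 and 50.4 CPM in Eln-positive cells, against 5.59, 6.47 and 3.88 in cells with Eln at 0, 10.3-fold higher (log2 fold change 3.37 ± 0.09; edgeR adjusted p = 1.03e-10). Fbln5, a fibulin that carries elastin to microfibrils, stood at 11.1, 5.39 and 14.2 CPM in Eln-positive cells, against 0.508, 0.441 and 1.03 in cells with Eln at 0 (log2 fold change 3.95 ± 0.20; edgeR adjusted p = 4.48e-09). Its level was low and spread between libraries, yet the groups did not overlap. Where both groups were held to smooth muscle genes of at least 3% of UMIs, its log2 fold change was 5.96.

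Of the list, Ltbp2, a latent TGF-β binding protein family member named after its value was seen, had the highest log2 fold change, at 2.77 ± 1.96 CPM in Eln-positive cells and 0.139 ± 0.181 in cells with Eln at 0 (4.30 ± 0.49), from 141 Ltbp2 UMIs in Eln-positive cells and 5 in cells with Eln at 0. Lox, the main lysyl oxidase, averaged 476 ± 31.2 CPM in Eln-positive cells and 313 ± 8.01 in cells with Eln at 0 (log2 fold change 0.60 ± 0.03). Ltbp1, a latent TGF-β binding protein of microfibrils, differed by 0.54 ± 0.04, Adamtsl4, a microfibril-associated protein, by 1.86 ± 0.09 and Fkbp10, a chaperone for collagen and elastin in the endoplasmic reticulum, by 1.28 ± 0.09. Emilin1, a glycoprotein at the edge of elastic fibres, was the 1 member called lower, named after its value was seen, at 51.2, 59.4 and 53.1 CPM in Eln-positive cells and 57.7, 78.3 and 60.7 in cells with Eln at 0 (log2 fold change -0.26 ± 0.05; edgeR adjusted p = 0.00158). Its groups overlapped between libraries. Loxl3 and Fbln1, both near 1 CPM, were not called.

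Of 38 tested genes of collagens and other matrix, 27 were higher in Eln-positive cells, 6 lower and 5 not called, with a median of 0.88. Among all genes tested, 22.6% were higher and 20.4% lower. Col1a1, the major chain of fibrillar collagen I, stood at 497.1, 491.4 and 492.5 CPM in Eln-positive cells, against 16.2, 22.0 and 18.5 in cells with Eln at 0, 26.2-fold higher (log2 fold change 4.71 ± 0.09; edgeR adjusted p = 1.1e-06). The 3 Eln-positive values were nearly equal. The groups did not overlap, but Col1a1 was chosen above for the size of its difference. A Col1a1 UMI was held by 55.5% of Eln-positive cells and 4.46% of cells with Eln at 0 after thinning, beside 2.91% of microglia. Col3a1, the chain of collagen III, stood at 749.2, 533.8 and 591.2 CPM in Eln-positive cells, against 77.2, 75.2 and 61.5 in cells with Eln at 0 (3.12 ± 0.14), and the vessel-wall collagen Col8a1 averaged 99.9 ± 15.8 CPM in Eln-positive cells and 4.49 ± 1.58 in cells with Eln at 0 (4.49 ± 0.12). Col15a1, Col4a1 and Bgn, a basement membrane linker, a basement membrane chain and the proteoglycan biglycan, differed by 4.70 ± 0.15, 1.46 ± 0.03 and 1.48 ± 0.03. The protease inhibitors Timp1 and Timp2 differed by 1.11 ± 0.05 and 0.85 ± 0.03. Agrn, the basement membrane proteoglycan agrin, was lower, at 45.8 ± 2.12 CPM in Eln-positive cells and 91.6 ± 9.61 in cells with Eln at 0.

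Collagen I is also a product of fibroblasts, and fibroblast markers are given beside it. Of 14 tested members of that list, 7 were higher in Eln-positive cells, 1 lower and 6 not called, with a median of 1.33. Among all genes tested, 22.6% were higher and 20.4% lower. The list's summed level was 2341, 1984 and 2032 CPM in Eln-positive cells, against 631, 584 and 545 in cells with Eln at 0. Most of the sum in Eln-positive cells came from Col1a1, Col3a1 and Ogn. Dcn, decorin, which defines those cells, averaged 12451 unscaled CPM in fibroblast comparison cells, close to the 12423 CPM of Col1a1 there. In Eln-positive cells Dcn averaged 15.0 unscaled CPM beside 459 for Col1a1, and in cells with Eln at 0 it averaged 6.41 beside 20.3. Dcn was higher in Eln-positive cells in all 3 libraries, at 23.7, 16.9 and 7.78 CPM, against 4.86, 8.01 and 5.08 in cells with Eln at 0, with groups that overlapped (log2 fold change 1.39 ± 0.42). It was not called by edgeR over all cells (adjusted p = 0.115), but it was called by DESeq2's Wald test (adjusted p = 0.000298) and by edgeR without sham 1 (1.78e-06), at the 3% rule (5.48e-05), after thinning (0.0015) and with at most 10% mitochondrial UMIs (0.0311). Over all 16 alternatives its adjusted p ranged from 1.78e-06 to 0.854. The part of fibroblast RNA in the Col1a1 difference was not tested. Since these genes were among those that chose the fibroblasts, their levels there are a description. Col1a2, the partner chain of collagen I, was low everywhere, at 13.5 ± 2.73 CPM in Eln-positive cells, 2.41 ± 0.307 in cells with Eln at 0 and 375 unscaled CPM in fibroblasts. Col14a1 went the other way but was not called, at 7.17 ± 4.85 CPM in Eln-positive cells and 25.3 ± 22.1 in cells with Eln at 0 (-1.71 ± 0.46). It was called lower by edgeR without sham 1 (-1.96, adjusted p = 2.80e-22), with at least 5 Eln UMIs (-1.96, 2.79e-05) and at the 3% rule (-2.03, 0.00172). With at most 10% mitochondrial UMIs it was not called (-0.74, 0.420). Ogn, osteoglycin, a small proteoglycan, averaged 658 ± 32.0 CPM in Eln-positive cells and 131 ± 2.55 in cells with Eln at 0 (2.33 ± 0.04).

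The 12 lowest log2 fold changes by the same rule included Vtn, Rgs5, Ndufa4l2, Higd1b and Anpep, which are members of the pericyte list. Vtn, vitronectin, stood at 38.8, 36.3 and 29.4 CPM in Eln-positive cells, against 814.4, 717.8 and 684.7 in cells with Eln at 0, 21.3-fold lower (log2 fold change -4.41 ± 0.04; edgeR adjusted p = 3.2e-14). Rgs5, which shortens G protein signals, stood at 57.5, 63.6 and 33.7 CPM in Eln-positive cells, against 906.4, 905.2 and 694.8 in cells with Eln at 0, 16.4-fold lower (-4.04 ± 0.15; edgeR adjusted p = 0.00196). Without sham 1 the call of Rgs5 was lost, at -4.07 and an adjusted p of 0.0611. Ndufa4l2, a paralogue of a respiratory chain subunit, stood at 23.2, 35.6 and 26.5 CPM in Eln-positive cells, against 595.3, 764.0 and 526.9 in cells with Eln at 0 (-4.47 ± 0.07). After thinning, 4.82%, 8.57% and 4.32% of Eln-positive cells held a UMI of Vtn, Rgs5 and Ndufa4l2, against 56.9%, 63.3% and 55.4% of cells with Eln at 0, and 2.58%, 2.25% and 2.12% of microglia. The shares in Eln-positive cells thus lay between those of microglia and of cells with Eln at 0, and nearer to microglia.

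Ano1, a calcium-activated chloride channel that depolarises smooth muscle, stood at 9.17, 11.1 and 6.83 CPM in Eln-positive cells, against 107.4, 123.7 and 92.7 in cells with Eln at 0 (-3.58 ± 0.06; edgeR adjusted p = 1.91e-13). Higd1b, a small protein of mitochondria, differed by -3.74 ± 0.04, the membrane peptidase Anpep by -3.64 ± 0.10, the carbonic anhydrase Car4 by -3.96 ± 0.06 and the manganese exporter Slc30a10 by -3.43 ± 0.09. Tmem100, a small membrane protein, differed by -4.12 ± 0.07, Ush1c, a scaffold protein, by -4.11 ± 0.09 and Mpped2, a phosphodiesterase family member, by -3.44 ± 0.08. Dlk1, a membrane protein of the Notch ligand family, had the lowest log2 fold change of the 12, at 3.02, 4.85 and 3.44 CPM in Eln-positive cells and 70.3, 136.0 and 68.4 in cells with Eln at 0 (-4.58 ± 0.08). Its UMIs were found in few cells, 0.696% of Eln-positive cells and 6.74% of cells with Eln at 0 after thinning. With 1 Eln UMI as the minimum for Eln-positive cells, the log2 fold changes of the 12 lay between -3.41 (Ndufa4l2) and -2.68 (Mpped2). At the 3% rule Higd1b was at -2.79 and Slc30a10 at -2.70, and with at most 10% mitochondrial UMIs Ano1 was at -2.98. Dlk1, Tmem100 and Ush1c were also the 3 of the 12 that stood lower in pericyte comparison cells than in smooth muscle cells with Eln at 0, at 17.5, 65.3 and 1.63 unscaled CPM in pericytes and 98.0, 95.4 and 41.0 in cells with Eln at 0.

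At the 1% rule, cells with pericyte markers were part of the group with Eln at 0. The genes Kcnj8, Abcc9, Atp13a5, Vtn and Higd1b together held at least 0.2% of UMIs in 0.869%, 0.664% and 0.647% of Eln-positive cells, against 26.5%, 23.9% and 21.4% of cells with Eln at 0. Of 16 tested pericyte markers, 3 were higher in Eln-positive cells, 12 lower and 1 not called, with a median of -2.37. Among all genes tested, 22.6% were higher and 20.4% lower. The summed level of the markers was 2141, 2099 and 1882 CPM in Eln-positive cells, against 5278, 5443 and 4419 in cells with Eln at 0. The ion channel genes that define capillary pericytes were low in both groups. Kcnj8 averaged 6.99 unscaled CPM in Eln-positive cells and 11.1 in cells with Eln at 0, beside 1300 in pericyte comparison cells, and Abcc9 averaged 27.7 in Eln-positive cells and 17.7 in cells with Eln at 0, beside 2191 in pericyte comparison cells. The 3 markers called higher, named after their values were seen, were Abcc9 at 0.83, the adhesion molecule Mcam at 0.21 and the proteoglycan Cspg4 at 0.15 on the log2 scale, all of which smooth muscle also expresses. When all cells at 0.2% or more were left out of both groups, an alternative added after seeing the data, Rgs5 was lower at -3.37, Ndufa4l2 at -4.17 and Dlk1 at -4.91 on the log2 scale, and 1975 genes were called lower. Vtn and Higd1b, which were among the genes that chose the cells left out, were at -3.80 and -2.28, against -4.41 and -3.74 with all cells. Upward, Wfdc1, Col1a1 and Fhl1 then differed by 4.92, 4.62 and 4.10, and 2282 genes were called higher.

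Among the transcription factors of smooth muscle, more were called lower than higher, and the master regulator Myocd was not called. Myocd, myocardin, the coactivator of serum response factor that drives contractile genes, stood at 37.8, 32.1 and 34.6 CPM in Eln-positive cells, against 33.4, 31.7 and 36.0 in cells with Eln at 0, and was not called (log2 fold change 0.05 ± 0.06; edgeR adjusted p = 0.563). Srf itself stood at 89.7, 94.8 and 88.6 CPM in Eln-positive cells, against 71.4, 76.9 and 72.3 in cells with Eln at 0 (0.31 ± 0.04; edgeR adjusted p = 3.05e-05). With at most 10% mitochondrial UMIs the call of Srf was lost, at 0.06 and an adjusted p of 0.636. Of 23 tested factors, 6 were higher, 11 lower and 6 not called, beside 22.6% higher and 20.4% lower over all genes tested. Their median was -0.14. Foxs1, a forkhead factor of vessel-wall cells, averaged 173 ± 18.6 CPM in Eln-positive cells and 409 ± 51.0 in cells with Eln at 0 (-1.24 ± 0.03), and Mef2c, Ebf1, Nr2f1 and Zic1 were lower at -0.94, -0.61, -0.51 and -1.38. Mef2a and Foxc2 were not called. Foxc2 was called lower without sham 3 (-0.19), at the 3% rule (-0.19), without high doublet scores (-0.12) and without pericyte-marker cells (-0.15).

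Most tested genes of the Notch list, which includes Epas1, were lower in Eln-positive cells, 9 of 13, with 2 higher and 2 not called. Over all genes tested, 20.4% were lower and 22.6% higher. The median of the list was -0.62. Notch3, the receptor that maintains arterial smooth muscle and is mutated in the human small-vessel disease CADASIL, stood at 35.8, 29.4 and 36.9 CPM in Eln-positive cells, against 64.8, 57.1 and 64.0 in cells with Eln at 0 (-0.87 ± 0.05; edgeR adjusted p = 1.98e-08). Notch2 went the other way, at 62.6, 57.8 and 56.6 CPM in Eln-positive cells and 34.4, 33.7 and 33.8 in cells with Eln at 0 (0.80 ± 0.05; edgeR adjusted p = 4.03e-08). The pair of receptors thus stood in opposite order, with no overlap for either. Notch1 and Notch4 were lower at -0.69 ± 0.04 and -1.68 ± 0.15. Of the target genes, Heyl was lower at -0.60 ± 0.04, and Hey2 was not called at 157 ± 20.3 CPM in Eln-positive cells and 164 ± 23.6 in cells with Eln at 0. Epas1, listed with them as a hypoxia-response factor of mural cells, was lower at -1.48 ± 0.03, at 352 ± 4.86 CPM in Eln-positive cells and 985 ± 56.6 in cells with Eln at 0.

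In the TGF-β and BMP list, 13 of 29 tested genes were higher, 5 lower and 11 not called, with a median of 0.22. The shares over all genes tested were 22.6% higher and 20.4% lower. Ctgf, connective tissue growth factor, a secreted protein induced by TGF-β and by stretch, stood at 1187, 719.8 and 718.5 CPM in Eln-positive cells, against 113.7, 70.0 and 71.1 in cells with Eln at 0, 10.3-fold higher (log2 fold change 3.36 ± 0.03; edgeR adjusted p = 3.21e-16). With at most 10% mitochondrial UMIs Ctgf differed by 3.99. Sham 1 was high in both cell groups, so the difference within each library was steadier than the level. The ligands Tgfb3 and Tgfb2 were higher by 1.58 ± 0.04 and 0.82 ± 0.06, Bmp5 by 2.29 ± 0.15 and Inhba, the activin A chain, by 0.78 ± 0.06. Id1, a target of BMP signals, and Tgfb1 were not called, Tgfb1 at 60.8 ± 3.82 CPM in Eln-positive cells and 66.6 ± 6.83 in cells with Eln at 0, and the coreceptor Tgfbr3 was lower at -0.63 ± 0.06. Id1 was called higher without sham 1 (0.32), at the 3% rule (0.22) and after thinning (0.26). Tgfb1 was called lower without sham 1 (-0.19) and with 1 Eln UMI as the minimum (-0.14).

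**Figure D4:**
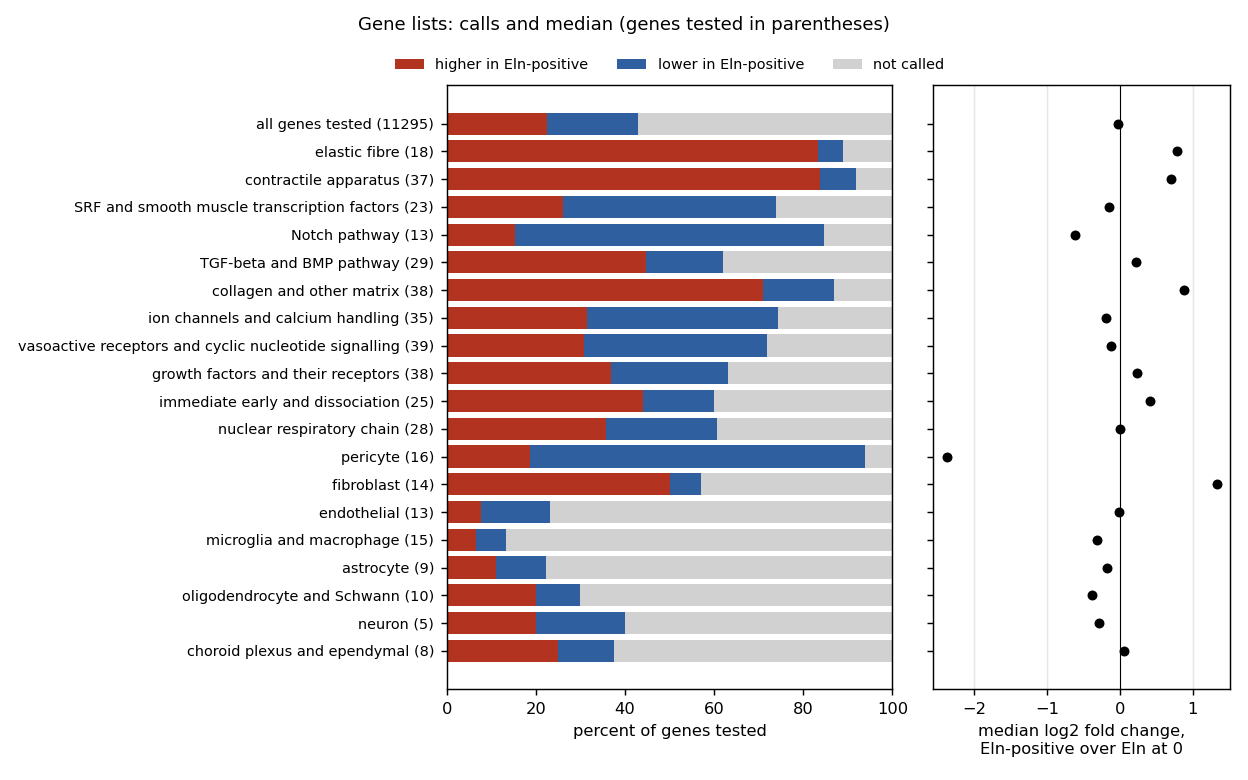
Left, percent of the tested genes of each list that were higher in Eln-positive cells, lower or not called, with all genes tested on top; right, the list's median log2 fold change. Elastic fibre, contractile and collagen lists hold 15 of 18, 31 of 37 and 27 of 38 genes higher, and the pericyte list 12 of 16 lower.

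Ion channel and calcium genes were split, with 11 of 35 higher in Eln-positive cells, 15 lower and 9 not called, and a median of -0.19. The shares over all genes tested were 22.6% higher and 20.4% lower. Ryr2, a calcium release channel of the sarcoplasmic reticulum, stood at 14.3, 17.5 and 18.3 CPM in Eln-positive cells, against 1.89, 1.98 and 2.33 in cells with Eln at 0, 8.06-fold higher (log2 fold change 3.01 ± 0.12; edgeR adjusted p = 5.41e-10). With at most 10% mitochondrial UMIs its log2 fold change was 4.70. The store proteins Casq2, which holds calcium, and Pln, which restrains the calcium pump, were higher by 1.23 ± 0.05 and 0.76 ± 0.03, and the calcium-dependent kinase Camk2g by 0.88 ± 0.04. The voltage-gated channel Cacna1c was not called at 28.0 ± 0.866 CPM in Eln-positive cells and 27.1 ± 0.299 in cells with Eln at 0, nor were Atp2b4 and Stim1. Cacna1c was called higher after thinning (0.26), and Atp2b4 lower at the 3% rule (-0.11) and without pericyte-marker cells (-0.10).

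Receptors for vasoactive signals also went both ways, with 12 of 39 tested genes higher, 16 lower and 11 not called, and a median of -0.12. The shares over all genes tested were 22.6% higher and 20.4% lower. Ramp1 and Calcrl code for the 2 subunits of the receptor for calcitonin gene-related peptide, a vasodilator. Ramp1 stood at 361.2, 324.8 and 308.7 CPM in Eln-positive cells, against 42.4, 40.6 and 39.9 in cells with Eln at 0, 8.09-fold higher (log2 fold change 3.02 ± 0.04; edgeR adjusted p = 1.1e-14), and 64.3% of Eln-positive cells held a UMI after thinning, against 16.0% of cells with Eln at 0 and 4.84% of microglia. Calcrl stood at 35.7, 38.2 and 36.0 CPM in Eln-positive cells, against 78.6, 81.9 and 86.2 in cells with Eln at 0 (-1.16 ± 0.05; edgeR adjusted p = 6.9e-10). The subunits of this receptor thus moved in opposite directions. With at most 10% mitochondrial UMIs Ramp1 differed by 3.78. P2ry6, the receptor for uridine diphosphate, was higher by 2.37 ± 0.09, and by 3.26 at the 3% rule. The endothelin receptor Ednra was lower at -0.96 ± 0.04, the prostacyclin receptor Ptgir by -2.04 ± 0.08 and Rgs4, a brake on G protein signals, by -1.23 ± 0.03. The cyclic nucleotide phosphodiesterases Pde5a and Pde1a were not called, at -0.02 ± 0.05 and 0.01 ± 0.05. With at most 10% mitochondrial UMIs Pde5a was called lower, at -0.28.

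Of 38 growth factor and receptor genes, 14 were higher, 10 lower and 14 not called, with a median of 0.24. The shares over all genes tested were 22.6% higher and 20.4% lower. Pdgfrb, the receptor that draws mural cells to vessels, averaged 241 ± 27.2 CPM in Eln-positive cells and 410 ± 52.4 in cells with Eln at 0 (-0.76 ± 0.03), and its ligand gene Pdgfa was lower at -0.60 ± 0.03. Angpt2, an angiopoietin, was lower at -0.90 ± 0.04. Slit3, a guidance ligand, was higher by 0.91 ± 0.04 and Igfbp7, an insulin-like growth factor binding protein, by 0.32 ± 0.02. Vegfa, Vegfb and Igf2 were not called. Vegfb was called lower without sham 3 (-0.29), with at least 5 Eln UMIs (-0.27), at the 3% rule (-0.31) and without high doublet scores (-0.25). Vegfa was called higher without sham 3 (0.58).

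Genes that respond to cell dissociation were higher in 11 of 25, lower in 4 and not called in 10, with a median of 0.41, and their summed level was 23000, 29371 and 23314 CPM in Eln-positive cells, against 18276, 21378 and 17213 in cells with Eln at 0. Fos, the most abundant member not called, was at 0.23 ± 0.11 (edgeR adjusted p = 0.238), but was called without sham 1, at 0.34. Zfp36 and Atf3 were not called either, at 0.52 ± 0.11 and 0.78 ± 0.14 (edgeR adjusted p = 0.0631 and 0.0546). Both were called higher by DESeq2's Wald test, after thinning and with at most 10% mitochondrial UMIs, but not without pericyte-marker cells (0.29 and 0.51). Btg2, an antiproliferative early gene, was higher by 1.16 ± 0.03. Jun and Jund were higher by 0.41 and 0.50 and Rasd1 and Gadd45b lower at -0.70 and -0.55, and without the library as a block these 4 calls were lost, at adjusted p-values of 0.0509, 0.282, 0.273 and 0.400. Nuclear genes of the respiratory chain went both ways, with 10 of 28 higher, 7 lower and 11 not called and a median of 0.00. The counts of both lists stand beside 22.6% higher and 20.4% lower over all genes tested. Cox7c and Ndufa2 were higher by 0.26 each and Ndufb5 and Atp5f1b lower at -0.28 and -0.15. Ndufa4, a subunit of cytochrome c oxidase, was higher by 0.79 ± 0.03, the opposite of its paralogue Ndufa4l2. The part of dissociation in the differences was not tested.

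Among markers of other cell types, genes not called were counted beside the 6439 of 11295 genes tested that were not called. They were 10 of 13 endothelial genes, 13 of 15 microglia and macrophage genes, 7 of 9 astrocyte genes, 7 of 10 oligodendrocyte and Schwann cell genes, 3 of 5 neuron genes and 5 of 8 choroid plexus and ependymal genes, the last 2 lists near the share over all genes, and none of 7 red blood cell symbols passed the filter on low counts. Choroid plexus and ependymal markers summed to 2005, 3675 and 429 CPM in Eln-positive cells, against 1941, 4018 and 520 in cells with Eln at 0, led by Ttr, the transthyretin of the choroid plexus, which was not called (-0.11 ± 0.15). The sum thus moved with the library far more than with the cell group. Microglia and macrophage markers summed to 139, 544 and 504 CPM in Eln-positive cells, against 364, 471 and 510 in cells with Eln at 0, and C1qa was not called (-0.31 ± 0.48). Astrocyte markers summed to 472, 465 and 583 CPM in Eln-positive cells, against 747, 724 and 878 in cells with Eln at 0, of which Atp1b2, a sodium pump subunit, made up 371 ± 7.15 CPM in Eln-positive cells and 649 ± 13.6 in cells with Eln at 0 (-0.81 ± 0.03). Among the endothelial genes, the adhesion molecule Esam and the membrane protein Itm2a were lower at -0.47 ± 0.03 and -0.88 ± 0.04 and the glucose transporter Slc2a1 higher by 0.36 ± 0.05, and of the Schwann cell genes the myelin protein Pmp22 was higher by 0.88 ± 0.04. Doublet scores above 0.25 were found in 3.104%, 3.98% and 3.59% of Eln-positive cells and 1.83%, 2.65% and 4.01% of cells with Eln at 0, and with these cells left out 2601 genes were higher and 2391 lower.

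Eln itself varied widely among the cells, and other genes were followed along it. All smooth muscle cells of each library were put into 5 bins, Eln at 0 and then equal parts of the remaining cells, Q1 to Q4, by Eln UMIs per 10000. Since bins with more Eln also held deeper cells, with a median of 12554, 14659 and 14044 UMIs in Q4 and 6915, 7508 and 7822 at Eln of 0, and since smooth muscle genes and Eln chose the cells, these values are a description. Eln stood at 133, 123 and 112 unscaled CPM in Q1 and at 2352, 2141 and 2225 in Q4. Cnn1 stood at 300.8, 279.6 and 309.1 unscaled CPM in cells with Eln at 0 of sham 1, 2 and 3, at 607.7, 501.8 and 503.0 in Q1 and at 1669, 1618 and 1514 in Q4. Col1a1 stood at 17.3, 23.3 and 20.1 unscaled CPM with Eln at 0, at 80.8, 80.3 and 49.6 in Q1 and at 723.2, 745.7 and 792.7 in Q4. Both were higher in each next bin in all 3 libraries, and Col1a1 spanned the wider range.

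Genes that were low in Eln-positive cells were already much lower in Q1. Vtn stood at 872.6, 761.7 and 743.3 unscaled CPM with Eln at 0, at 187.2, 201.3 and 224.5 in Q1 and at 52.1, 54.0 and 53.1 in Q2. Rgs5 took the same course, with 971.1, 960.6 and 754.3 unscaled CPM at Eln of 0, 188.5, 247.2 and 192.1 in Q1 and 36.2, 35.6 and 21.3 in Q4. Notch3 was lower in each next bin of sham 1 and 3, and in sham 2 up to Q3, with 69.5, 60.6 and 69.5 unscaled CPM at Eln of 0 and 26.4, 24.8 and 24.1 in Q4. Cells with 1 Eln UMI, which the comparison left out, also lay in between. After thinning, Vtn was held by 26.0% and Cnn1 by 81.0% of those cells, between the values of the 2 groups compared.

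**Figure D5:**
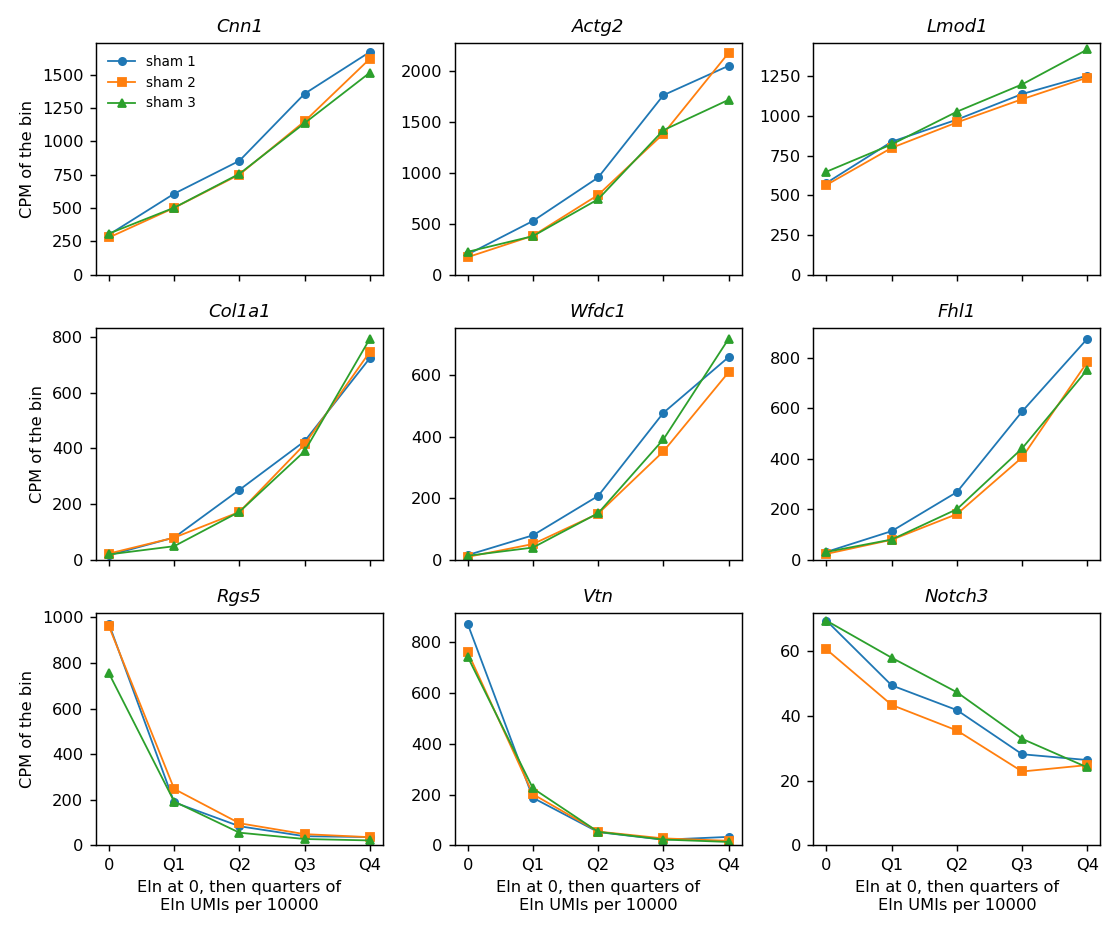
Unscaled CPM of 9 genes in smooth muscle cells with Eln at 0 and in equal parts of the other smooth muscle cells by Eln UMIs per 10000 (Q1 lowest, Q4 highest), one line per sham library. Cnn1, Actg2, Lmod1, Col1a1, Wfdc1 and Fhl1 stand higher in each next bin, Rgs5 and Vtn are low from Q2 on, and Notch3 is lower toward the right except for the last step of sham 2.

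Of 2365 genes with at least 50 CPM, Myh11, a gene of the rule, followed Eln most closely over the 5 bins, with a mean within-library Pearson correlation of 0.993 on the log2(CPM + 5) scale. It was followed by Nexn, Cdc42ep3, Slmap, Lmod1, S100a11, Dmpk, Maco1, Fam129a and Susd2, at 0.990 down to 0.985. Nexn codes for nexilin, which binds actin filaments, Slmap for a membrane protein of the muscle sarcolemma and Dmpk for the myotonic dystrophy kinase. Each value rests on 5 bins of 3 libraries that share cells, depth and smooth muscle content with Eln, so no p is given.

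Among the Eln-positive cells, the genes high with Eln went together in the same cells. After thinning, Wfdc1 was held by 80.1%, 75.6% and 76.2% of Eln-positive cells with a Col1a1 UMI, against 41.1%, 32.2% and 34.6% of those without one. Both genes were held by 43.6%, 42.5% and 42.5% of the Eln-positive cells. Cells of 1 library share their source, so these shares describe each library and were not tested across cells.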

How the data were processed

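The deposited files hold, per library, raw counts of UMIs per gene and barcode, already limited to barcodes of at least 500 UMIs, with no cell annotation. Cell Ranger 3.1.0, CASAVA 1.8 and Seurat 2.3.4 are named in the submitters' processing notes, and the extract protocol in the labels is a 10x 3′ kit. No genome build or doublet step is given in the sources used. All barcodes that passed the stated filters were used, doublets included. The cells, the gene lists and the genes named were chosen with earlier results of these data known.

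From these counts, UMIs were summed per library and cell group (Python 3.11.15, scanpy 1.11.5 for doublet scores) and tested with edgeR 4.0.16 in R 4.3.3 (quasi-likelihood, TMM, filterByExpr, robust), with the library as a block because both groups come from the same libraries. Group levels are CPM ± SD over 3 libraries, and fold changes carry ± SE. Tagln, Acta2, Myh11 and Eln were kept in the library sizes and given no test. Of 25399 genes listed, 11295 were tested. Genes named are the 12 highest and 12 lowest log2 fold changes among called genes of at least 20 CPM with one direction in every library, up to 6 called and 3 uncalled members per list, and Cnn1 and Actg2, except a few genes not reported here. Thinning used 1 random draw per cell. On simulated counts for 11154 genes, the test recovered 70.8%, 86.2% and 98.5% of genes changed by 0.5, 1 and 2 log2 units and called 0.237% of unchanged genes. That simulation changed 200 genes, up or down, and had no difference between libraries. In the data 43.0% of genes were called and the libraries differed, so these rates need not hold there. Counting intervals and limits cover counting error only. Promoters are RefSeq's, build GRCr8.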

Additional observations from a re-analysis of the deposited data

How the results depend on the processing

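The counts of genes higher and lower in Eln-positive cells, 2553 and 2303, moved most with DESeq2's Wald test (1571 and 1038, so 60.2% of its calls were higher, against 52.6%) and with at most 10% mitochondrial UMIs (1561 and 1372), where 445, 182 and 222 Eln-positive cells remained. The cause was not tested. Without the replicate block, which takes out the library that both groups share, 1821 and 1554 genes were called, and 3362 of the 4856 calls, 69.2%, were shared. Leaving out 1 library gave 2130 to 2241 and 1812 to 1982 genes. The share of Eln-positive cells, 41.4%, moved by construction to 53.1% with 1 Eln UMI as the minimum and 28.1% with 5. Settings that do not use Eln moved the share as well. It was 47.9% with smooth muscle genes at 3% or more, 27.8% with at most 10% mitochondrial UMIs and 44.0% among cells of at least 5000 UMIs. Without pericyte-marker cells, a setting added after seeing the data, it was 46.8%. Leaving out 1 library gave 40.4% to 42.3%, a difference in median UMIs of 4053 to 4451 and one in mitochondrial share of 1.39 to 1.67 percentage points.

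Over 16 settings, 2381 of 2512 comparisons of 159 named genes were counted as the same, 40 lost the call, 72 gained one and 19 turned round. A gene called in neither fit was counted as the same whatever its sign, so further log2 fold changes near 0 changed sign. Without pericyte-marker cells, for example, Myocd was at -0.01 and Loxl3 at 0.02, called in neither fit. The 19 that turned round, with a call in at least 1 of the fits compared, were in genes near 0 or in markers of other cell types. With smooth muscle genes at 3% or more, Ppp1r12a was at -0.090, Tmem119 0.92, C1qb 1.07, Tyrobp 1.10, Cnp 0.029, Enpp2 -0.49 and Clic6 -0.34. With at most 10% mitochondrial UMIs, Serping1 was at 0.15, Apod 0.59 and Aldoc -0.046. Between 5000 and 20000 UMIs, S100b was at -0.47, Enpp2 -0.27 and Clic6 -0.094. Without high doublet scores, Enpp2 was at -0.65 and Clic6 -0.52. Thinned, Enpp2 was at -0.018. Leaving out 1 library gave -0.59 to 0.14 for C1qa and -0.50 to 0.25 for Tyrobp, both above 0 without sham 1. Without pericyte-marker cells Ppp1r12a was at -0.094. Depth limits the low genes: a share of cells near that of microglia cannot be told from free RNA.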

Other observations

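Several list members outside the named set, chosen after their values were seen, also stood apart. Htra1, a secreted protease that is mutated in an inherited human small-vessel disease, averaged 149 CPM in Eln-positive cells and 9.31 in cells with Eln at 0 (log2 fold change 4.01). Igfbp4 and Igfbp5, binding proteins of insulin-like growth factors, averaged 438 and 186 CPM in Eln-positive cells and 56.0 and 26.9 in cells with Eln at 0. Ackr3, a scavenging chemokine receptor, averaged 155 CPM in Eln-positive cells and 520 in cells with Eln at 0, and Nrarp, a feedback gene of Notch, averaged 149 CPM in Eln-positive cells and 512 in cells with Eln at 0.

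Pcp4, which codes for a calmodulin-binding peptide, was high in Eln-positive cells but differed between libraries in both groups. It stood at 1128, 759 and 430 CPM in Eln-positive cells of sham 1, 2 and 3, against 133, 65.9 and 25.2 in cells with Eln at 0 (log2 fold change 3.48 ± 0.27; edgeR adjusted p = 0.0127). After thinning, 64.4%, 52.3% and 33.6% of the Eln-positive cells held it. Nov, a secreted protein of the family of Ctgf, was steadier, at 1293, 1021 and 1492 CPM in Eln-positive cells and 134, 109 and 161 in cells with Eln at 0 (3.24 ± 0.03).

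Of 13 mitochondrially encoded genes, 12 were higher in Eln-positive cells and 1 was not called, with a median log2 fold change of 0.37. Of 70 ribosomal protein genes, 4 were higher, 39 lower and 27 not called, with a median of -0.10. Both lists were added after seeing the data. Over all genes tested, 22.6% were higher and 20.4% lower.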
